A study of Mus musculus with 8 samples.

Results

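The mRNA of 6 genes that carry or shape the spread of the electrical impulse through the heart was examined in the hearts of mice with and without pressure overload: Scn4b, an auxiliary beta subunit of voltage-gated sodium channels, the pacemaker channel genes Hcn2 and Hcn4, and the connexin genes Gja1 (Cx43), Gja5 (Cx40) and Gjc1 (Cx45). They were chosen by name among the 25929 genes of the expression table, and all 6 were listed and passed the filter on low values. The 8 RNA-sequencing libraries fell into 4 groups of 2. WT-Sham and WT-TAC were wild-type C57BL/6 mice, and Fat1-Sham and Fat1-TAC were littermates that carry the fat-1 transgene, a C. elegans desaturase gene whose enzyme turns n-6 into n-3 polyunsaturated fatty acids. TAC (transverse aortic constriction) narrows the aortic arch and loads the left ventricle, sham animals had the chest opened without the constriction, and all mice were 3 months old at surgery. The promoter that drives the transgene is not given in the sources used here, and neither is whether a library came from a single animal. The sample labels name ventricular tissue, whereas the methods name hearts.

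Voltage-gated sodium channels carry the upstroke of the action potential in working and conducting myocardium, and their beta subunits modify gating and surface expression of the pore-forming subunit. HCN channels open on hyperpolarization and carry the funny current of pacemaker tissue, where Hcn4 is the leading form, while Hcn2 is also present in working myocardium. Connexins assemble into gap junction channels between neighbouring cells. Gja1 is the main connexin of ventricular myocardium, Gja5 is known from atrial myocardium, the His-Purkinje system and arterial endothelium, and Gjc1 from nodal tissue.

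Depth, recovered from the values as whole fragments, lay between 14163994 and 21218331 fragments per library. WT-TAC1 stood apart: all 6 thymocyte markers were at 1 FPKM or more there and 0 of 6 in the other 7 libraries, and the mean log2(FPKM + 1) of 10 cardiomyocyte markers was 9.47 against 10.36 to 10.61 in the others. The thymocyte marker Rag1 was listed at 251.9 FPKM in WT-TAC1, at 0.06 FPKM in WT-TAC2 and at 0 in the other 6 libraries. Airway epithelial markers reached 1 FPKM for 8 of 8 genes in both WT-TAC libraries and for 0 to 5 in the rest. Atrial cardiomyocyte markers (Nppa, Myl7, Myl4, Sln, Bmp10, Dkk3 and Nr2f2) averaged 5.93 to 7.28 on the log2 scale in WT-Sham1, WT-Sham2, WT-TAC1, WT-TAC2 and Fat1-Sham1, but 2.15 to 2.77 in Fat1-Sham2, Fat1-TAC1 and Fat1-TAC2, and none was at 0 in any library. Ventricular identity was present throughout, with the ventricular light chain gene Myl2 at 5244 to 14851 FPKM. In such bulk samples, fewer cells of a type and less RNA per cell cannot be told apart.

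FPKM, fragments scaled to gene length and library depth, allows levels of different genes to be compared. By this measure Gja1 was the most abundant of the 6 genes in every library, at 139.3 to 333.5 FPKM. Scn4b followed at 11.7 to 22.4 FPKM, with the exception of WT-Sham2 and WT-TAC2, where Gja5 lay above it. Gjc1 (7.08 to 10.5 FPKM), Hcn2 (2.22 to 8.98 FPKM) and Gja5 (2.67 to 17.6 FPKM) overlapped in range and changed order between libraries. Hcn4 was lowest in 7 libraries, at 1.70 to 3.48 FPKM over all 8, and only in Fat1-Sham2 did Gja5 lie below it. Hcn4 rested on 147 to 416 fragments per library, and the lowest number for any of the 6 genes in a library was 125, for Gja5.

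**Figure D1:**
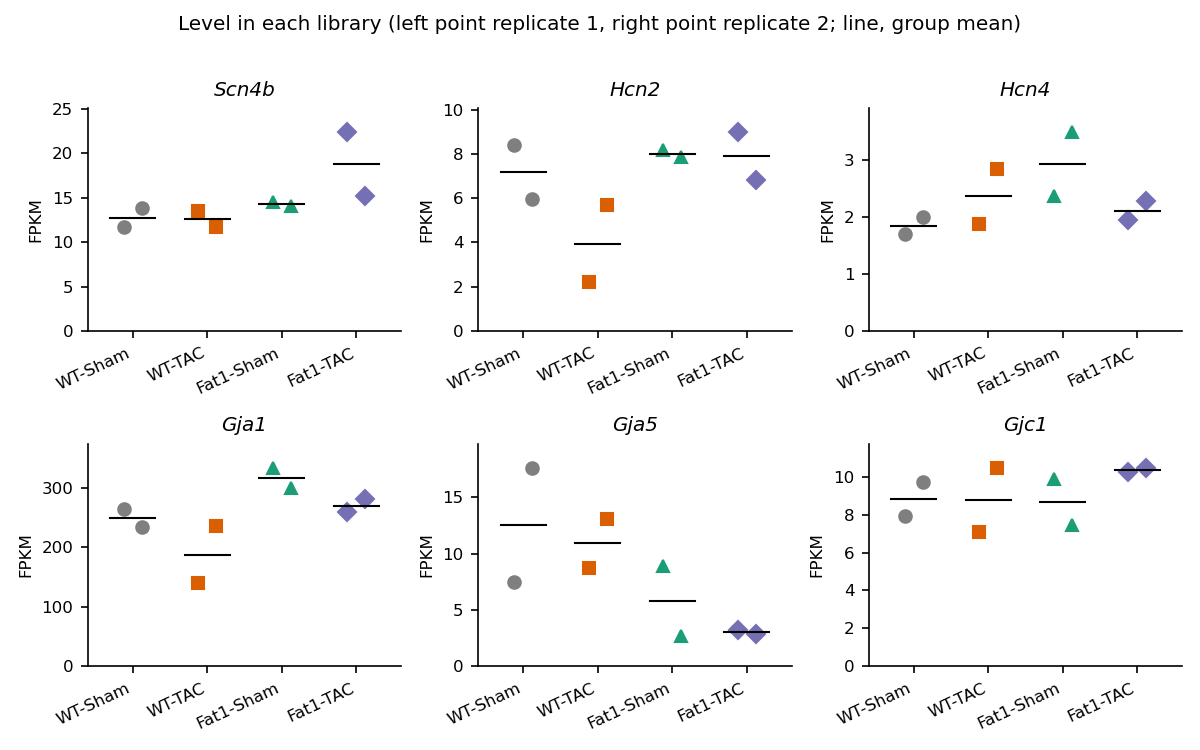
FPKM of the 6 genes (vertical axes, each from 0) in the 4 groups, with 1 point per library and a line at the group mean. Gja5 is below 4 FPKM in both Fat1-TAC libraries and in Fat1-Sham2, and Hcn2 and Gja1 are lowest in WT-TAC1.

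None of the 6 genes was called in any of 7 comparisons by limma on log2(FPKM + 1), where a call needs an adjusted p (Benjamini-Hochberg) under 0.1 together with a fold change beyond 1.5 in either direction. The background of calls among the 14442 genes tested was 0.935% between WT-TAC and WT-Sham, 1.43% between Fat1-TAC and WT-TAC, 0.00692% between Fat1-TAC and Fat1-Sham, 0% between Fat1-Sham and WT-Sham, 0% for TAC against Sham over both genotypes, 0.0415% for fat-1 against WT over both surgeries and 0.0692% for the interaction of genotype and surgery. At an unadjusted p under 0.05, limma gave Hcn2 and Gja5 between Fat1-TAC and WT-TAC, Gja1 and Gja5 for fat-1 against WT, and 0 genes in the other 5 comparisons. Of all genes tested, 29.4% and 14.9% passed that limit in the first 2 of these comparisons, 27.5% between WT-TAC and WT-Sham, 2.58% between Fat1-TAC and Fat1-Sham, 1.25% between Fat1-Sham and WT-Sham, 15.8% for TAC against Sham and 7.26% for the interaction. With limma-voom on the recovered fragments, 0 of 6 genes were called in each comparison. Of all 14442 genes, limma-voom called 6 higher and 0 lower between WT-TAC and WT-Sham. Between Fat1-TAC and WT-TAC it called 2 higher and 90 lower, and in the remaining comparisons 0. The comparisons of WT-TAC with WT-Sham and of Fat1-TAC with WT-TAC share the WT-TAC libraries, so opposite signs in them are not separate observations.

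Whether the libraries of 2 groups overlapped was also counted. Between Fat1-TAC and WT-TAC, 4 of 6 genes did not overlap (Scn4b, Hcn2 and Gja1 higher and Gja5 lower in Fat1-TAC), against 66.4% of all genes tested (9.33% higher and 57.1% lower). Between WT-TAC and WT-Sham, only Hcn2 did not overlap, lower in WT-TAC, against 59.6% of all genes tested (52.5% higher and 7.09% lower). Between Fat1-TAC and Fat1-Sham, Scn4b and Gjc1 were higher and Hcn4 and Gja1 lower without overlap, against 48.3% (26.8% higher and 21.5% lower). Between Fat1-Sham and WT-Sham, Scn4b, Hcn4 and Gja1 were higher without overlap, against 32% (15.5% higher and 16.5% lower). Over both genotypes, 0 of 6 genes separated the 4 TAC from the 4 sham libraries, against 9.28%, and over both surgeries only Scn4b separated the 4 fat-1 from the 4 WT libraries, against 5.54%.

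**Figure D2:**
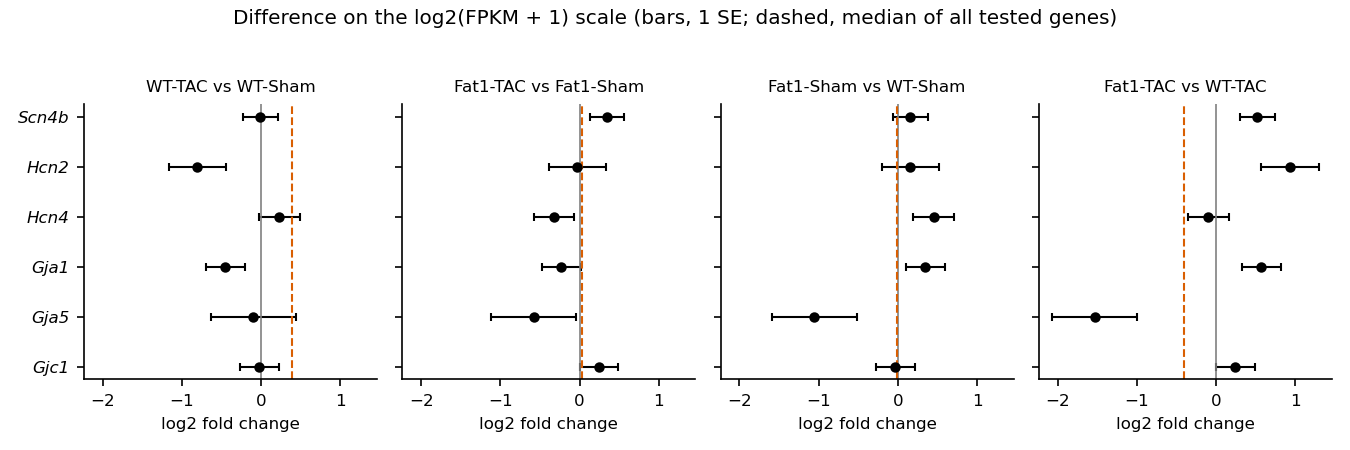
Log2 fold changes of the 6 genes (points, with bars of 1 SE from limma) in the 4 pairwise comparisons, with a dashed line at the median of all 14442 genes tested. The dashed line lies at 0.39 for WT-TAC against WT-Sham and at -0.40 for Fat1-TAC against WT-TAC, and the largest difference of the 6 genes is that of Gja5 in the latter, at -1.53.

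Scn4b, the sodium channel accessory subunit, was at 11.7 and 13.9 FPKM in the WT-Sham libraries, 13.5 and 11.7 FPKM in WT-TAC, 14.6 and 14.1 FPKM in Fat1-Sham, and 22.4 and 15.2 FPKM in Fat1-TAC. All 4 fat-1 libraries lay above all 4 WT libraries, by a narrow margin between Fat1-Sham2 and WT-Sham2, and Fat1-TAC1 was the highest. The group means were 12.8 ± 1.54 FPKM in WT-Sham, 12.6 ± 1.29 FPKM in WT-TAC, 14.3 ± 0.361 FPKM in Fat1-Sham and 18.8 ± 5.09 FPKM in Fat1-TAC (SD, n = 2 libraries each). The fat-1 against WT difference was 0.34 on the log2 scale (SE 0.16, limma adjusted p = 0.347), and that between Fat1-TAC and WT-TAC was 0.52 (SE 0.22, limma adjusted p = 0.17). Without Fat1-TAC1 the latter was 0.25. TAC and sham differed by -0.01 in WT (SE 0.22) and by 0.35 in fat-1 mice (SE 0.22), and neither difference passed the test. With libraries scaled to cardiomyocyte genes, the fat-1 against WT difference was 0.02 and that between Fat1-TAC and WT-TAC was -0.01. With quantile normalization they were 0.60 and 1.04, and neither was called.

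Of the 13 other sodium channel subunit genes, 6 passed the filter and 0 were called in any comparison. In Fat1-TAC against WT-TAC their median log2 difference was -0.27, beside -0.40 over all genes tested. The largest differences in that comparison were those of Scn7a (-0.60, SE 0.28), Scn4a (0.58, SE 0.28), Scn3b (-0.50, SE 0.27) and Scn10a (-0.41, SE 0.23). Of 10 sodium channel partners, 9 passed and 0 were called, with a median of 0.07. The farthest from 0 was Fgf12, which encodes an intracellular fibroblast growth factor homologous factor that binds sodium channels, at -2.88 (SE 0.77, limma adjusted p = 0.146). Fgf12 was at 2.58 to 13.5 FPKM in WT-Sham, WT-TAC and Fat1-Sham1, and at 0.15 to 0.21 FPKM in Fat1-Sham2, Fat1-TAC1 and Fat1-TAC2, the 3 libraries in which atrial markers were low. Nedd4l, a ubiquitin ligase known to act on sodium channels, followed at -0.61 (SE 0.21), then Ank2 at 0.42 (SE 0.26) and Dlg1 at -0.39 (SE 0.17). The most abundant partner, the kinase gene Camk2d, lay at 47.8 to 74.5 FPKM with a difference of 0.24 (SE 0.20).

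Hcn2, the more abundant of the pacemaker channel genes, was at 8.40 and 5.98 FPKM in WT-Sham, 2.22 and 5.67 FPKM in WT-TAC, 8.16 and 7.88 FPKM in Fat1-Sham, and 8.98 and 6.82 FPKM in Fat1-TAC. WT-TAC1 was lowest and WT-TAC2 lay just under the lower WT-Sham library, so the groups did not overlap. The group means were 7.19 ± 1.71 FPKM in WT-Sham, 3.94 ± 2.44 FPKM in WT-TAC, 8.02 ± 0.202 FPKM in Fat1-Sham and 7.90 ± 1.52 FPKM in Fat1-TAC (SD, n = 2 libraries each). WT-TAC differed from WT-Sham by -0.81 on the log2 scale (SE 0.36, limma adjusted p = 0.186), and Fat1-TAC from WT-TAC by 0.93 (SE 0.36, limma unadjusted p = 0.0359 and adjusted p = 0.166). In fat-1 mice, TAC and sham differed by -0.03 (SE 0.36), and the interaction of genotype and surgery was 0.78 (SE 0.51, limma adjusted p = 0.495).

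The size of the Hcn2 differences in WT-TAC rested on the library that stood apart. Without WT-TAC1, WT-TAC differed from WT-Sham by -0.28 and Fat1-TAC from WT-TAC by 0.41, with limma adjusted p = 0.525 and 0.382. Without WT-TAC2, so that WT-TAC1 alone stood for its group and was assumed to vary like the other groups, the same differences were -1.33 and 1.46 and were called, with limma adjusted p = 0.00514 and 0.00372. In that fit 51.3% and 54.3% of all genes tested were called in the same comparisons, beside 26% for TAC against Sham, 26.1% for fat-1 against WT and 46.2% for the interaction. Between groups, cardiomyocyte markers differed in the same direction as Hcn2. From WT-Sham to WT-TAC, 9 of 10 had negative log2 fold changes with a median of -0.52. From WT-TAC to Fat1-TAC, 10 of 10 were positive with a median of 0.50. Pearson's r of Hcn2 with their mean level was 0.90 over the 8 libraries, but -0.05 without WT-TAC1 and Fat1-Sham2. With the mean level of ventricular cardiomyocyte markers it was 0.93, and 0.85 without WT-TAC1 and Fat1-TAC2. The mean level of the 10 cardiomyocyte markers was 10.37 in WT-TAC2, beside 10.36 and 10.39 in WT-Sham. Hcn2 in WT-TAC2 lay just under the lower WT-Sham library. The part of cardiomyocyte content in the Hcn2 values was not tested. Scaled to cardiomyocyte genes, the Hcn2 differences were -0.46 and 0.50, on the same side of 0 and not called, and with quantile normalization they were -1.36 and 1.48, also not called.

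Hcn4 was at 1.70 and 1.99 FPKM in WT-Sham, 1.87 and 2.84 FPKM in WT-TAC, 2.36 and 3.48 FPKM in Fat1-Sham, and 1.94 and 2.27 FPKM in Fat1-TAC. Both Fat1-Sham libraries lay above both WT-Sham and both Fat1-TAC libraries, and WT-TAC overlapped every other group. The group means were 1.84 ± 0.206 FPKM in WT-Sham, 2.36 ± 0.685 FPKM in WT-TAC, 2.92 ± 0.788 FPKM in Fat1-Sham and 2.11 ± 0.232 FPKM in Fat1-TAC (SD, n = 2 libraries each). Fat1-Sham differed from WT-Sham by 0.45 on the log2 scale (SE 0.26), Fat1-TAC from Fat1-Sham by -0.32 (SE 0.26), WT-TAC from WT-Sham by 0.23 (SE 0.26), and Fat1-TAC from WT-TAC by -0.10 (SE 0.26). The interaction was -0.55 (SE 0.36, limma adjusted p = 0.495). On a log2(FPKM + 1) scale, changes of a gene at this level are understated.

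Within a library, where scaling cancels, the log2 ratio of Hcn4 to Hcn2 was -2.31 and -1.59 in WT-Sham, -0.24 and -0.998 in WT-TAC, -1.79 and -1.18 in Fat1-Sham, and -2.21 and -1.59 in Fat1-TAC. Both WT-TAC libraries lay above the other 6, and the ratio remained below 0 in every library. The highest value was that of WT-TAC1, the library that stood apart, and WT-TAC2 lay near Fat1-Sham2. A ratio does not cancel differences in the cells sampled, and their part was not tested. Of 5 HCN channels and partners, only Cav3, the muscle caveolin, passed the filter. It lay at 21.6 to 46.8 FPKM, lowest in WT-TAC1, and differed by 0.64 between Fat1-TAC and WT-TAC (SE 0.24, limma adjusted p = 0.164).

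**Figure D3:**
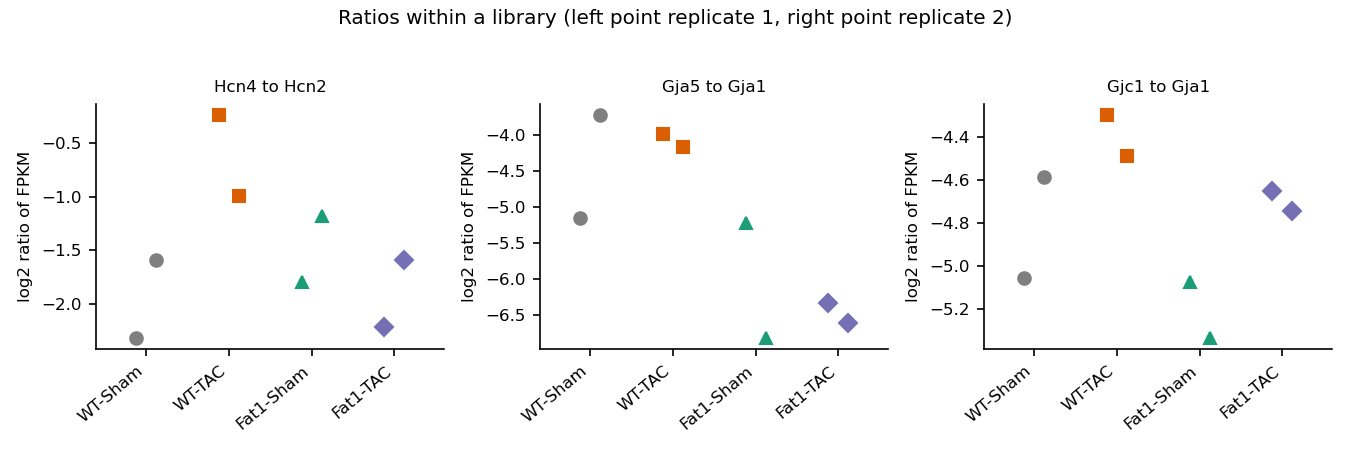
Log2 ratios of FPKM within each library (vertical axes, in log2 units) for Hcn4 to Hcn2, Gja5 to Gja1 and Gjc1 to Gja1, with 1 point per library in the 4 groups. Both WT-TAC libraries are highest for Hcn4 to Hcn2, at -0.24 and -0.998, and the 4 fat-1 libraries lie below the 4 WT libraries for Gja5 to Gja1.

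The connexins Gja1 and Gja5 gave differences of opposite sign between genotypes, neither of which was called. The 250 bases before their RefSeq start sites (GRCm38.p6, plus strand) are shown as a description, and a link of sequence to level was not tested. Each window was searched on both strands for short motifs, whose share of hits is given over 32544 RefSeq promoters of 300 bases. The motif of T-box factors was searched as GGTGTGA and was present in 3.955% of promoters. For the homeobox factor NKX2-5 the search used CAAGTG, present in 13.483%. For GATA factors the letters were AGATAA, present in 11.16%. The AP-1 motif was taken as TGAGTCA, with a share of 5.193%. For Sp1 the letters GGGCGG were present in 35.884% of promoters. The TATA box was searched as TATAAA and was present in 13.569%. Capitals mark the matches. The Gja1 window lies at chr10:56377050-56377299 and the Gja5 window at chr3:97032152-97032401.
Gja1: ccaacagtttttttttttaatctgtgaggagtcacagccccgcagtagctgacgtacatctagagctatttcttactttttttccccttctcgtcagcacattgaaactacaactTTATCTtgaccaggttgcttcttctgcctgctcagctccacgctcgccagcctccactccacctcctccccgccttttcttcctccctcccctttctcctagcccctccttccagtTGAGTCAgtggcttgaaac
Gja5: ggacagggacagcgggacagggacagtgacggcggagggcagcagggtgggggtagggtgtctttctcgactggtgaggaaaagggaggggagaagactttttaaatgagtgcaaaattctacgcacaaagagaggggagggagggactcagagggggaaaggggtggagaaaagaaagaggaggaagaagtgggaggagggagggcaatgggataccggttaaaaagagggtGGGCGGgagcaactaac
The Gja1 window holds the GATA letters on the minus strand from position -135 and the AP-1 letters on the plus strand from -19, counted from the start site, and shares neither with Gja5. The Gja5 window holds the Sp1 letters on the plus strand from -17. A match of letters is a description and not a shown binding site. Of the 6 genes, 5 had an entry in the promoter table, and Gjc1 had none.

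Gja1, the main ventricular connexin, was at 264.3 and 233.7 FPKM in WT-Sham, 139.3 and 235.4 FPKM in WT-TAC, 333.5 and 299.4 FPKM in Fat1-Sham, and 258.6 and 280.3 FPKM in Fat1-TAC. WT-TAC1 was lowest, WT-TAC2 lay among the WT-Sham libraries, and both Fat1-Sham libraries lay above all others. The group means were 249.0 ± 21.6 FPKM in WT-Sham, 187.3 ± 67.9 FPKM in WT-TAC, 316.4 ± 24.1 FPKM in Fat1-Sham and 269.5 ± 15.3 FPKM in Fat1-TAC (SD, n = 2 libraries each). On the log2 scale, fat-1 differed from WT by 0.46 over both surgeries (SE 0.17, limma unadjusted p = 0.0333 and adjusted p = 0.315). Fat1-TAC differed from WT-TAC by 0.57 (SE 0.25, limma adjusted p = 0.171), Fat1-Sham from WT-Sham by 0.35 (SE 0.25), WT-TAC from WT-Sham by -0.45 (SE 0.25, limma adjusted p = 0.229), and Fat1-TAC from Fat1-Sham by -0.23 (SE 0.25).

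Here too WT-TAC1 set much of the size. Without it, WT-TAC differed from WT-Sham by -0.08 and Fat1-TAC from WT-TAC by 0.19, and neither was called. Without WT-TAC2, the differences were -0.83 and 0.95 and were called, with limma adjusted p = 0.00266 and 0.00181, in the fit that also called 51.3% and 54.3% of all genes. Scaled to cardiomyocyte genes, they were -0.004 and 0.02, while Fat1-Sham still differed from WT-Sham by 0.22. Median of ratios scaling moved them the other way, to -0.93 and 1.04, and neither was called. The fat-1 against WT difference of Gja1 was 0.12 when scaled to cardiomyocyte genes and 0.71 with median of ratios scaling.

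Gja5, the atrial and conduction system connexin, was at 7.46 and 17.6 FPKM in WT-Sham, 8.74 and 13.1 FPKM in WT-TAC, 8.93 and 2.67 FPKM in Fat1-Sham, and 3.22 and 2.88 FPKM in Fat1-TAC, from 125 to 896 fragments. The 4 WT libraries and Fat1-Sham1 lay at 7.46 FPKM or more, and Fat1-Sham2 and both Fat1-TAC libraries at 3.22 FPKM or less, so the groups overlapped in every pairwise comparison except Fat1-TAC against WT-TAC. The group means were 12.6 ± 7.20 FPKM in WT-Sham, 10.9 ± 3.08 FPKM in WT-TAC, 5.80 ± 4.42 FPKM in Fat1-Sham and 3.05 ± 0.242 FPKM in Fat1-TAC (SD, n = 2 libraries each). Fat1-TAC differed from WT-TAC by -1.53 on the log2 scale (SE 0.54, limma unadjusted p = 0.0236 and adjusted p = 0.163), and fat-1 from WT over both surgeries by -1.30 (SE 0.38, limma unadjusted p = 0.0107 and adjusted p = 0.257). Fat1-Sham differed from WT-Sham by -1.06 (SE 0.54), Fat1-TAC from Fat1-Sham by -0.58 (SE 0.54) and WT-TAC from WT-Sham by -0.10 (SE 0.54). The Fat1-Sham against WT-Sham difference was -1.77 without Fat1-Sham1 and -0.34 without Fat1-Sham2.

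The mean atrial marker level divided the libraries as Gja5 did, though not in the same order throughout. The atrial myosin light chain gene Myl7 was at 456.3 and 1945 FPKM in WT-Sham, 1035 and 1097 FPKM in WT-TAC, 602 and 9.62 FPKM in Fat1-Sham, and 18.3 and 12.7 FPKM in Fat1-TAC. The 3 libraries with the lowest Myl7 were also the 3 with the lowest Gja5, and WT-Sham2 was highest for both. The mean of the atrial markers, however, was highest in WT-TAC1 (7.28), where Gja5 was at 8.74 FPKM. Of these markers, Bmp10 was at 0.07 FPKM in WT-Sham2, where Gja5 was highest, and at 70.5 FPKM in Fat1-Sham1. Between Fat1-TAC and WT-TAC, 7 of 7 atrial markers had negative log2 fold changes with a median of -5.20, and for fat-1 against WT the median was -3.27. With the mean atrial marker level as a covariate, a fit added after the data were seen, the Gja5 difference between Fat1-TAC and WT-TAC was 0.07 (SE 0.61, limma adjusted p = 0.977) and that of fat-1 against WT was -0.15 (SE 0.44, limma adjusted p = 0.999). In that fit, 0 of all genes tested were called between Fat1-TAC and WT-TAC. The mean atrial marker level was 7.28 and 7.19 in WT-TAC but 2.77 and 2.52 in Fat1-TAC. In this comparison the covariate and the group can therefore hardly be told apart, and no conclusion is drawn from the smaller difference. The 7 arterial endothelial markers, another known site of Gja5, had a median of 0.15 between Fat1-TAC and WT-TAC with 4 of 7 positive, and their mean level spanned 2.96 to 3.20 on the log2 scale over the 8 libraries. Fibroblast, smooth muscle and neuron and glia markers averaged higher in WT-Sham2, WT-TAC1 and WT-TAC2 than in Fat1-Sham2 and both Fat1-TAC libraries. Over the 8 libraries, their mean levels had a Spearman rho with Gja5 of 0.88, 0.74 and 0.88, beside 0.83 for atrial markers. Pearson's r was 0.86, 0.82 and 0.85, beside 0.93 for atrial markers. Arterial endothelial markers had a rho of 0.74 and an r of 0.59 with Gja5. The likeness to Gja5 was thus not particular to atrial markers, and the part of the other cell types in the Gja5 values was not tested.

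The annotated Gja5 gene model (GENCODE M21, GRCm38 chromosome 3, 96904693 to 97077416, plus strand) overlaps genes on the opposite strand, and the library kit is not stated to keep strand. Of these, Gpr89 was at 5.95 to 7.97 FPKM, with its highest value in WT-TAC1. The models of the other 5 genes overlap no other gene.

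**Figure D4:**
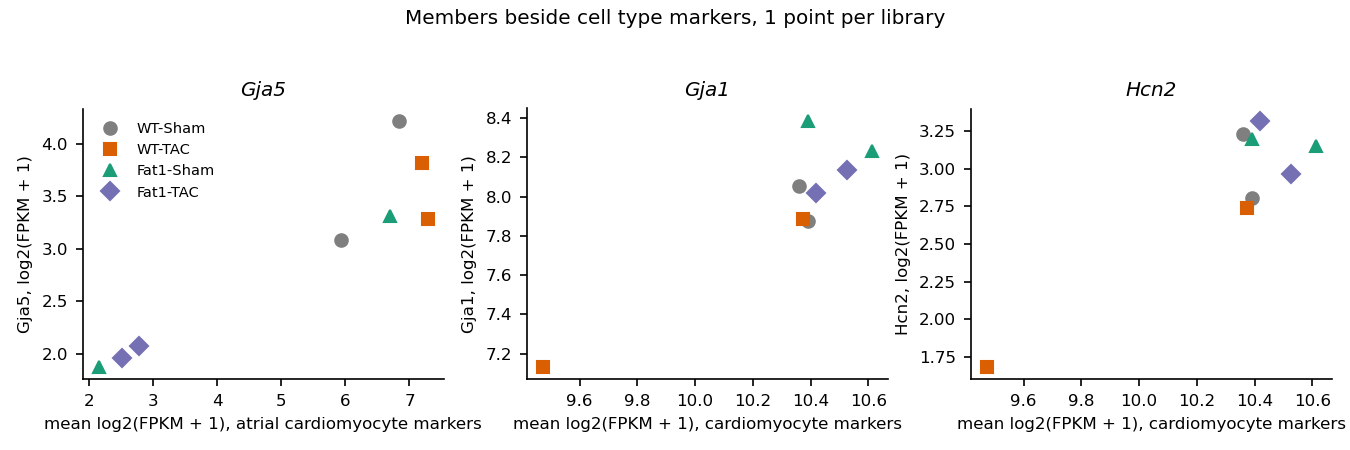
Log2(FPKM + 1) of Gja5 against the mean of 7 atrial cardiomyocyte markers (left), and of Gja1 and Hcn2 against the mean of 10 cardiomyocyte markers (middle and right), with 1 point per library. The 3 libraries with atrial marker means of 2.15 to 2.77 hold the 3 lowest Gja5 values, and WT-TAC1, at a cardiomyocyte marker mean of 9.47, holds the lowest Gja1 and Hcn2 values.

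Gjc1 was at 7.95 and 9.73 FPKM in WT-Sham, 7.08 and 10.5 FPKM in WT-TAC, 9.91 and 7.44 FPKM in Fat1-Sham, and 10.3 and 10.5 FPKM in Fat1-TAC. In the 4 pairwise comparisons the groups overlapped except that both Fat1-TAC libraries lay above both Fat1-Sham libraries. The group means were 8.84 ± 1.25 FPKM in WT-Sham, 8.78 ± 2.42 FPKM in WT-TAC, 8.67 ± 1.75 FPKM in Fat1-Sham and 10.4 ± 0.135 FPKM in Fat1-TAC (SD, n = 2 libraries each). Its differences on the log2 scale were within about 1 SE of 0: 0.25 for Fat1-TAC against Fat1-Sham, 0.24 for Fat1-TAC against WT-TAC, -0.02 for WT-TAC against WT-Sham and -0.03 for Fat1-Sham against WT-Sham (SE 0.24 each). The difference between Fat1-TAC and Fat1-Sham was 0.06 without Fat1-Sham2.

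Set against Gja1 within the same library, Gja5 and Gjc1 varied differently. The log2 ratio of Gja5 to Gja1 was -5.15 and -3.73 in WT-Sham, -3.99 and -4.17 in WT-TAC, -5.22 and -6.81 in Fat1-Sham, and -6.33 and -6.61 in Fat1-TAC. All 4 fat-1 libraries lay below all 4 WT libraries, with Fat1-Sham1 and WT-Sham1 almost level. The log2 ratio of Gjc1 to Gja1 was -5.05 and -4.59 in WT-Sham, -4.30 and -4.49 in WT-TAC, -5.07 and -5.33 in Fat1-Sham, and -4.65 and -4.74 in Fat1-TAC. In each genotype the TAC libraries lay above the sham libraries, by a narrow margin between WT-TAC2 and WT-Sham2. The mean difference over both genotypes was 0.47, but TAC and sham then overlapped, as WT-Sham2 lay above both Fat1-TAC libraries. How many gene pairs separate in this way was not counted. Differences in the cells sampled do not cancel in these ratios either, and their part was not tested.

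Of the summed FPKM of 14 connexin genes, Gja1 made up 81.5% to 90.5%. Gja5 took 2.49% and 6.16% in WT-Sham, 5.12% and 4.63% in WT-TAC, 2.38% and 0.807% in Fat1-Sham, and 1.09% and 0.910% in Fat1-TAC. The share of Gja5 was thus at most 1.09% in the 3 libraries with low atrial markers. Gjc1 took 2.25% to 4.14%, Gja3 3.83% to 5.27% and Gja4, a connexin of vascular endothelium, 1.80% to 3.15%. Of the 12 other connexins listed, only Gja3 and Gja4 passed the filter, and neither was called. Between Fat1-TAC and WT-TAC they differed by 0.35 (SE 0.28) and 0.28 (SE 0.20). Gjb2, an epithelial connexin, took 0.564% in WT-TAC1, 0.0901% in WT-TAC2 and at most 0.0145% elsewhere. Gja10, Gjb6, Gjd2, Gjd4 and Gje1 were not analysed here.

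**Figure D5:**
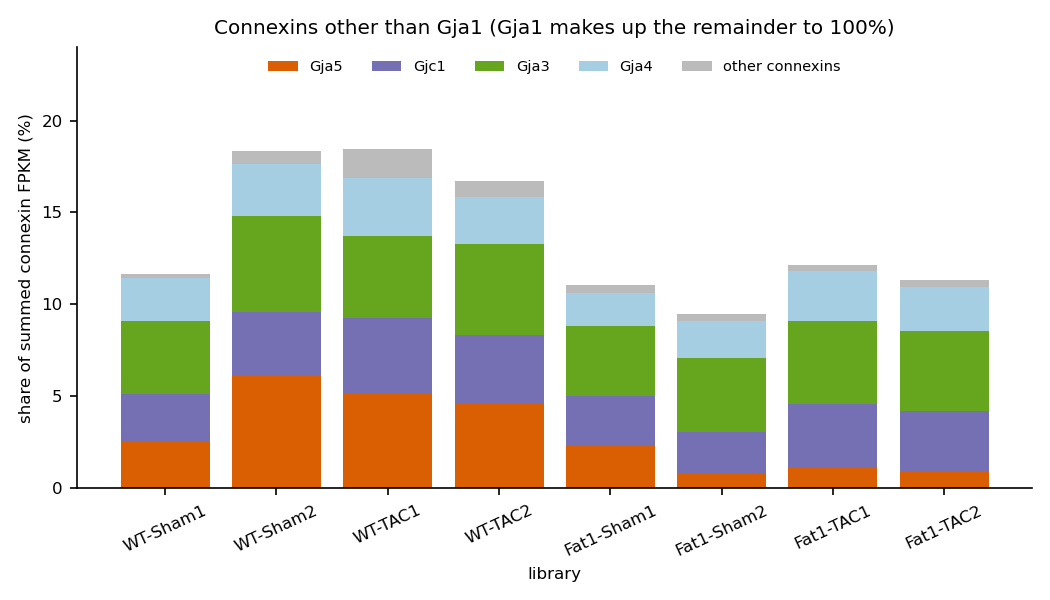
Share of the summed connexin FPKM in percent (vertical axis from 0) held by Gja5, Gjc1, Gja3, Gja4 and the remaining connexins in each library, with Gja1 making up the rest. Gja5 takes 6.16% in WT-Sham2 and at most 1.09% in Fat1-Sham2 and both Fat1-TAC libraries, whereas the shares of Gjc1, Gja3 and Gja4 move less.

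All 16 intercalated disc partners of the connexins passed the filter and 0 were called in any comparison. Between Fat1-TAC and WT-TAC, 12 of 16 log2 fold changes were positive with a median of 0.15, beside 3176 of 14442 and a median of -0.40 over all genes tested. Between WT-TAC and WT-Sham, 3 of 16 were positive with a median of -0.15, beside 11447 of 14442 and a median of 0.39 over all genes tested. The 10 cardiomyocyte markers had medians of 0.50 and -0.52 in these 2 comparisons, with 10 of 10 and 1 of 10 positive, and their part in the disc gene values was not tested. The largest differences between Fat1-TAC and WT-TAC were those of the desmosomal plakophilin gene Pkp2 (0.69, SE 0.24), N-cadherin, Cdh2 (0.61, SE 0.23), Nrap (0.54, SE 0.29) and Xirp2 (0.52, SE 0.29). Pkp2 was at 25.7 FPKM in WT-TAC1 and at 42.9 to 55.5 FPKM in the other 7 libraries. The beta-catenin gene Ctnnb1, the most abundant of the list, lay at 175.2 to 225.5 FPKM and was highest in WT-TAC1.

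All 15 conduction system transcription factors and markers passed the filter, and 0 were called. Between Fat1-TAC and WT-TAC, 6 of 15 were positive, with a median of -0.53. The largest differences were those of the T-type calcium channel gene Cacna1h (-1.87, SE 0.55, limma adjusted p = 0.158), Isl1 (-1.83, SE 0.52), Id2 (-1.48, SE 0.43) and Shox2, a transcription factor of the sinoatrial node (-1.32, SE 0.29, limma adjusted p = 0.12). Cacna1h was at 6.13 to 18.0 FPKM in the WT libraries and Fat1-Sham1 and at 2.66 to 4.24 FPKM in Fat1-Sham2 and Fat1-TAC. Shox2 was at 0.84 to 2.93 FPKM in the former and at 0.23 to 0.34 FPKM in the latter, the same division of libraries as that of Gja5 and the atrial markers. Isl1 and Id2 instead stood out in WT-TAC1, at 6.89 and 27.1 FPKM against at most 1.42 and 13.1 FPKM in the others. The most abundant of the list, Hopx, lay at 69.1 to 118.7 FPKM and was lowest in WT-TAC1.

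The genes with the most similar pattern were found among 9444 genes with a mean of at least 5 FPKM, by Pearson's r of log2(FPKM + 1) over the 8 libraries, as a description. For Gja5 they were Gnao1 (0.984), Sbk3 (0.982) and Pam (0.981). For Gja1 they were Gm36827 (0.996), Vldlr (0.989) and Cenpv (0.988), and for Hcn2 the respiratory chain genes Ndufa13 (0.986) and Ndufa1 (0.984) with the disc gene Pkp2 (0.985). Scn4b was nearest to mt-Co3 (0.907), Cxcl12 (0.905) and Kpna3 (0.881), Hcn4 to Stk40 (0.954), Phb2 (0.929) and Luzp1 (0.908), and Gjc1 to Gata2 (0.962), Apbb2 (0.962) and Erg (0.953). The 8 points of each pair share libraries, and WT-TAC1 lies far from the others for Gja1 and Hcn2. For Scn4b and mt-Co3 it is Fat1-TAC1 that lies far out, at 22.4 and 2837 FPKM, against at most 15.2 and 1003 FPKM elsewhere.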

How the data were processed

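RNA-sequencing was analysed in 8 libraries of mouse heart, 2 per group. TRIzol RNA and an NEBNext Ultra kit were used by the authors, quality-filtered reads were aligned to a reference transcriptome, and FPKM values were deposited by the authors for 25929 genes. The submitters' processing notes name HISAT2, mm10 and GRCm38, and the counting program, annotation and versions are not given in the sources used here. Ensembl identifiers were matched to symbols for 25852 genes, 77 had none, and 4 blank lines were removed. For 100.0% of genes, the FPKM values were whole fragments (within 0.005) at a single gene length. That length came from annotated transcripts for 11424 genes. For 14504 others it was the smallest whole length, found by search, that gave whole fragments in all libraries. Gja1, Gja5 and Gjc1 were among the latter, so their fragment numbers rest on a searched length.

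The 14442 genes that reached 1 FPKM in 2 or more libraries were compared with limma 3.58.1 (R 4.3.3; lmFit, eBayes with a trend) on log2(FPKM + 1), pseudocount 1, with 4 group means and 4 residual degrees of freedom. For a call, p adjusted by Benjamini-Hochberg had to be under 0.1 with a change beyond 1.5-fold either way, the cutoffs of the study. An exact permutation test of 2 against 2 libraries cannot give a two-sided p below 0.33. The labels call the samples independent, and p-values measure the spread between these libraries. The script was tested on simulated data. Ratios and likeness were described with no test. Named were the 6 genes, and of each related list the most abundant gene and up to 4 with the largest difference between Fat1-TAC and WT-TAC. A few related genes, and 1 planned ratio, are not reported here. The members and lists were chosen with earlier results of these data known. Since amplified fragments carry no molecular identifiers, their numbers speak to counting error only. Alternatives were other scalings, filters and pseudocounts, only 2 groups, a replicate block, a test with no moderation, limma-voom on recovered fragments, leaving out each library, and an atrial marker covariate added after the data were seen.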

Additional observations from a re-analysis of the deposited data

How the results depend on the processing

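The expression values were recomputed under 19 or fewer alternatives each. Of 773 values of the 6 genes, 716 kept their sign and their side of the threshold, 47 changed sign, 0 lost a call and 10 gained one. All 10 gains came without WT-TAC replicate 2, when WT-TAC1 stood alone: over the 8 fits that each left out 1 library, the genes called numbered 0 to 2 between WT-TAC and WT-Sham (Hcn2 and Gja1), 0 to 2 between Fat1-TAC and WT-TAC (the same pair), 0 to 1 for TAC against Sham (Hcn2), 0 to 3 for fat-1 against WT (Hcn2, Gja1 and Gja5) and 0 to 2 for the interaction (Hcn2 and Gja1). Without WT-TAC replicate 2, the calls over all 14442 genes numbered 7408, 7837, 3752, 3769 and 6679 in these comparisons. The numbers called stayed at 0 in the other comparisons and under each of the other settings.

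Changes of sign are given as log2 differences, and their cause was not tested. With median of ratios scaling, Hcn4 was at -0.076 between WT-TAC and WT-Sham and 0.20 between Fat1-TAC and WT-TAC, Gjc1 at 0.0039 between Fat1-Sham and WT-Sham, and for TAC against Sham Scn4b was at -0.074 and Gjc1 at -0.12. With quantile normalization the Hcn4 values were -0.35 and 0.47, those of Scn4b and Gjc1 for TAC against Sham -0.11 and -0.19, and the Gja5 interaction 0.010. Scaled to cardiomyocyte genes, WT-TAC against WT-Sham gave 0.42 for Scn4b, 0.32 for Gja5 and 0.38 for Gjc1, Fat1-TAC against WT-TAC -0.0064 for Scn4b and -0.26 for Gjc1, TAC against Sham 0.13 for Hcn4, fat-1 against WT -0.067 for Hcn4 and -0.20 for Gjc1, and the interaction -0.047 for Scn4b, -0.20 for Gja1 and -0.12 for Gjc1. With the atrial marker covariate, Gja5 was at 0.075 between Fat1-TAC and WT-TAC, 0.044 between Fat1-TAC and Fat1-Sham and 0.44 for the interaction, Gjc1 at 0.14 between Fat1-Sham and WT-Sham, and Hcn4 at -0.10 for fat-1 against WT.

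Leaving out each library in turn changed a sign within these ranges. Between WT-TAC and WT-Sham they were -0.13 to 0.10 for Scn4b, -0.67 to 0.47 for Gja5 and -0.28 to 0.23 for Gjc1. Between Fat1-TAC and WT-TAC they were -0.31 to 0.11 for Hcn4 and -0.015 to 0.49 for Gjc1, between Fat1-TAC and Fat1-Sham -0.21 to 0.15 for Hcn2 and -1.29 to 0.14 for Gja5, and between Fat1-Sham and WT-Sham -0.060 to 0.37 for Hcn2 and -0.22 to 0.15 for Gjc1. For TAC against Sham they were -0.15 to 0.056 for Hcn4, -0.017 to 0.24 for Gjc1 and -0.70 to 0.020 for Gja5, for fat-1 against WT -0.023 to 0.23 for Gjc1, and for the interaction -1.19 to 0.24 for Gja5 and -0.15 to 0.60 for Gja1. The mean TAC minus Sham difference of the log2 ratio of Gja5 to Gja1, -0.05, ranged from -0.57 to 0.45.

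The replicate numbers did not pair the samples: differences between same-numbered libraries correlated at -0.135 to 0.0236 across genes between groups. With the replicate block, 0 of 6 genes were called, and Gja5 between Fat1-TAC and WT-TAC was at -1.53 with limma adjusted p = 0.202. Among all genes, the block fit called 52 higher and 0 lower between WT-TAC and WT-Sham. It called 1 higher and 51 lower between Fat1-TAC and WT-TAC, and 1 higher and 0 lower between Fat1-TAC and Fat1-Sham. Over all genes tested, WT-TAC against WT-Sham gave 133 limma calls with a higher level and 2 with a lower, and 23 and 0 with median of ratios scaling. In Fat1-TAC against WT-TAC limma called 5 higher and 201 lower, and 1 and 19 with that scaling. With 2 libraries per group, the precision is set by their number more than by depth.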
